A study of Mus musculus with 6 samples.

Results

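The contractile and actin cytoskeletal genes *Acta2*, *Tagln*, *Myl9*, *Cnn1*, *Tpm1*, *Tpm2*, *Actg2*, *Vcl*, *Cav1* and *Tns1* were compared between PP2Ac KO and PP2Ac WT bone marrow-derived macrophages (BMDM). These 10 genes were taken by symbol from the 55453 gene rows of the deposited count table, and all 10 symbols were present. Of the 10 genes, 9 had enough counts to be tested and *Cnn1* did not. Each of the 9 fell in PP2Ac KO BMDM, to between 16.3% of the WT level for *Tpm2* and 65.5% for *Vcl*, where 19.0% of all genes tested were lower. For none of the 9 did the 3 PP2Ac KO libraries overlap the 3 WT libraries, and 26.8% of all genes tested had every PP2Ac KO library below every WT library.

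RNA-Seq libraries were made from poly(A) RNA of 6 BMDM samples, 3 per genotype, all on the C57BL/6 background. PP2Ac KO cells came from LysM cre PP2Ac fl/fl mice, in which cre under the myeloid *Lyz2* (LysM) promoter cuts the floxed *Ppp2ca* gene, encoding the catalytic subunit of protein phosphatase 2A (PP2Ac), only in cells in which that promoter has been active. PP2Ac WT cells came from C57BL/6 mice of a separate commercial source without the floxed or cre alleles, so the colony and the cre transgene cannot be told apart from the loss of PP2Ac. The study's methods describe mice of both sexes and young adult age, BMDM grown with M-CSF or with medium conditioned by L929 fibroblasts, and stimulation of both genotypes with cGAMP, the cyclic dinucleotide that activates STING; the labels themselves name no treatment. The labels do not say whether the 3 libraries of a genotype came from separate mice, so the p-values measure the spread between these libraries, which may be technical. The question behind the comparison was what loss of PP2Ac changes in the transcriptome of stimulated macrophages.

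The library totals ran from 35257156 to 47390899 counts, and 3 counts corresponded to between 0.0604 and 0.0909 CPM (counts per 1000000 counts), which is the limit that a count of 0 allows. *Ppp2ca* itself, the deleted gene, had 47, 33 and 38 counts with PP2Ac KO against 10654, 8913 and 8279 in WT, a log2 fold change of -7.67 in the direction of the labels. Fold changes below are PP2Ac KO over WT on the log2 scale from edgeR's quasi-likelihood test with their standard error (SE), and adjusted p-values are Benjamini-Hochberg values over the 13680 genes tested. Across all genes tested, log2 fold changes had a median of -0.02 and quartiles of -0.26 and 0.20. CPM values are scaled by edgeR's trimmed mean of M-values (TMM) and given as mean ± SD with n = 3.

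Actin and myosin filaments make cells contract, and smooth muscle carries its own actins, tropomyosins and thin-filament proteins, many of which fibroblasts switch on as they become myofibroblasts. Many of these genes are targets of serum response factor (SRF), which binds a short element named the CArG box. SRF works with actin-sensing cofactors (MRTF-A and MRTF-B, encoded by *Mrtfa* and *Mrtfb*), which monomeric actin holds back and polymerisation releases, or with ternary complex factors (TCF), which answer to MAP kinase and drive immediate early genes. The Hippo pathway effectors YAP and TAZ act through TEAD factors, whose core element CATTCC is also found near several contractile genes. Macrophages are not contractile cells of this kind and build their cytoskeleton mainly from *Actb* and *Actg1*.

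Genes restricted to smooth muscle and more widely made genes of its contractile list stood at different levels. *Myh11*, the smooth muscle myosin heavy chain, had 5, 1 and 2 counts in PP2Ac KO and 1 in each WT library, and *Myocd*, the smooth muscle SRF cofactor myocardin, had 1 count in a single PP2Ac KO library and 0 in the other 5. *Smtn* (322, 291 and 315 counts in WT), *Cald1* (1028, 796 and 566) and *Mylk* (74, 60 and 34), which other cells also make, were detected in every library. The summed level of 6 macrophage markers (*Adgre1*, *Csf1r*, *Cd68*, *Itgam*, *Mertk*, *Fcgr1*) was 7372 ± 95.2 CPM in PP2Ac KO and 6416 ± 334 CPM in WT. Of the 6, *Fcgr1* (log2 fold change 0.70, adjusted p = 0.00049) and *Mertk* (0.27, adjusted p = 0.0398) rose, and the other 4 passed in neither direction. This depended on the scaling: with total counts alone 1 marker rose and 1 fell. With TMM, 18.1% of all genes tested rose and 19.0% fell. Summed over the 10 contractile and cytoskeletal genes, the level was 130.5 ± 3.64 CPM in PP2Ac KO and 256.5 ± 8.01 CPM in WT. Most of both sums came from *Tns1*, *Tpm1* and *Vcl*, with means of 107.6, 64.7 and 60.2 CPM in WT. In bulk RNA, fewer cells of a type and less RNA per cell cannot be told apart.

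The promoters of 3 of these genes are shown, *Myl9* and *Vcl* because they hold an exact match to the SRF element and *Acta2* because it is the smooth muscle actin gene of the set with a window. RefSeq (GRCm38.p6) gave a window of 250 bases before to 50 bases after the start for 8 of the 10 genes. *Tagln* and *Actg2* had no window, so neither was searched. Capitals mark the CArG box, 2 cytosines, 6 A or T bases and 2 guanines, with at most 1 mismatch; the element reads the same on both strands.
*Myl9*, chr2:156775214-156775513, plus strand: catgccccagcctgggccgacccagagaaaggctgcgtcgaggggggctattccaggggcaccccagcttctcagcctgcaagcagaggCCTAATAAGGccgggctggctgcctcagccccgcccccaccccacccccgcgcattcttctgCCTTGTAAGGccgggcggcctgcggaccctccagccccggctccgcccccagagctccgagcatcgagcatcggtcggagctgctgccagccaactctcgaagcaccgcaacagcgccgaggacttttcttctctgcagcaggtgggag
*Vcl*, chr14:20929148-20929447, plus strand: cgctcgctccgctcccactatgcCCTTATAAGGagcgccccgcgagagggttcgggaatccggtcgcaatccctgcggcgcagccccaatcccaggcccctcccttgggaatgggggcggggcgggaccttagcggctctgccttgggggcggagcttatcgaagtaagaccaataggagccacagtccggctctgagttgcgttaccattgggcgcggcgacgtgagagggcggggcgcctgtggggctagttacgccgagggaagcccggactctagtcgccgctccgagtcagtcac
*Acta2*, chr19:34255324-34255623, minus strand: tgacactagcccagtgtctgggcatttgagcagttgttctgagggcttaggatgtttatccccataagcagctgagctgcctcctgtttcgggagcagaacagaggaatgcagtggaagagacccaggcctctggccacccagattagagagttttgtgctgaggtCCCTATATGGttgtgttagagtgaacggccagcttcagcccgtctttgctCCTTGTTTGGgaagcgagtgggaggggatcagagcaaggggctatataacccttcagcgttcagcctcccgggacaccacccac
An exact CArG box was present in 2 of the 8 genes, in *Myl9* at -161 to -152 and in *Vcl* at -227 to -218 from the RefSeq start. It was present in 1.63% of all 32851 promoters of the same length. With 1 mismatch allowed, *Acta2* (at -84 to -75 and at -34 to -25), a further position of *Myl9* (-99 to -90) and *Tpm1* (-221 to -212 and -80 to -71) were added, giving 4 of the 8 genes beside 21.1% of all promoters. The TEAD core CATTCC, on either strand and overlapping no CArG match, was found in *Acta2*, *Tpm1* and *Vcl*, and in 14.7% of all promoters. These are letter matches in short windows and not measured binding.

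The 2 smooth muscle actins of the set both fell. *Acta2* (chromosome 19, 34241090 to 34255590, minus strand, GENCODE M21 on GRCm38), the alpha actin of vascular smooth muscle and myofibroblasts, had 104, 66 and 84 counts in PP2Ac KO and 439, 386 and 321 in WT. All 3 PP2Ac KO libraries were below the lowest WT library. The level was 2.16 ± 0.257 CPM in PP2Ac KO and 8.46 ± 0.693 CPM in WT, a log2 fold change of -1.97 (SE 0.13, adjusted p = 4e-05). *Actg2* (chromosome 6, 83512905 to 83536265, minus strand), the gamma actin of visceral smooth muscle, had 14, 7 and 7 counts in PP2Ac KO and 44, 73 and 38 in WT. WT replicate 2 stood above the other two WT libraries, which gave *Actg2* the widest spread of the tested genes, with a highest WT level 1.90 times the lowest. Even so, the groups did not overlap, and the log2 fold change was -2.26 (SE 0.38, adjusted p = 0.00165), from 1.16 ± 0.452 to 0.237 ± 0.0839 CPM.

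Tropomyosins lie along the actin filament and govern its access to myosin. *Tpm2* (chromosome 4, 43514711 to 43523765, minus strand), the beta tropomyosin of muscle, had 21, 18 and 20 counts in PP2Ac KO and 161, 142 and 118 in WT. The PP2Ac KO libraries were close to each other and far below WT. *Tpm2* had the largest fold change of the set, -2.62 (SE 0.17, adjusted p = 4.48e-05), from 3.11 ± 0.253 to 0.507 ± 0.0345 CPM. *Tpm1* (chromosome 9, 67022590 to 67049406, minus strand), the alpha tropomyosin, of which non-muscle cells also make isoforms, had 1638, 1390 and 1664 counts in PP2Ac KO and 3006, 3043 and 2663 in WT. Here too the groups were apart, but the fold change was smaller, -0.69 (SE 0.07, adjusted p = 0.00016), from 64.7 ± 4.83 to 40.2 ± 1.77 CPM. The 95% interval of the *Tpm2* log2 fold change, -3.01 to -2.23, did not reach that of *Tpm1*, -0.85 to -0.53; the difference between the genes was not itself tested, and transcript isoforms were not separated in the counts.

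The thin-filament and myosin genes of the set were low in every library. *Tagln* (chromosome 9, 45929619 to 45936058, minus strand), which encodes the actin-binding protein transgelin or SM22, had 48, 37 and 36 counts in PP2Ac KO and 229, 220 and 128 in WT. WT replicate 3 was the lowest WT library and still lay above every PP2Ac KO library. The level went from 4.24 ± 1.05 to 1.04 ± 0.152 CPM, a log2 fold change of -2.03 (SE 0.22, adjusted p = 0.000214). *Myl9* (chromosome 2, 156775420 to 156781658, plus strand), a regulatory light chain of smooth muscle and non-muscle myosin, had 15, 7 and 11 counts in PP2Ac KO and 65, 67 and 58 in WT. The 3 WT libraries were alike, and the PP2Ac KO libraries all lay under them. The log2 fold change of *Myl9* was -2.32 (SE 0.25, adjusted p = 0.000184), from 1.41 ± 0.118 to 0.276 ± 0.0716 CPM. *Cnn1* (chromosome 9, 22099216 to 22109630, plus strand), the smooth muscle calponin that binds actin and slows myosin, had 0, 0 and 3 counts in PP2Ac KO and 6, 4 and 1 in WT. The libraries of *Cnn1* overlapped, and the ratio of the summed counts, 3 over 11 after scaling for library size, was 0.314 with a 95% counting interval of 0.0563 to 1.19. A difference in *Cnn1* was not detectable at this depth.

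Exons of *Tagln* overlap those of 2 genes on the other strand in GENCODE M21, *Pcsk7* by 108 bases and *Gm48529* by 1241 bases. The library kit marks strand, but whether the counting used strand is not given in the sources used here. Both partners moved the other way from *Tagln*: *Pcsk7* went from 50.2 ± 4.45 to 75.6 ± 3.77 CPM (adjusted p = 0.000446), and *Gm48529* from 4.07 ± 0.836 to 6.77 ± 0.881 CPM (adjusted p = 0.00628). Between *Acta2* and other annotated genes, 7 of 2146 windows of 50 bases were shared (0.326%), all of them with *Actg1* and its pseudogenes and none with *Actb*. *Tagln*, *Myl9*, *Cnn1*, *Tpm1*, *Tpm2*, *Actg2*, *Vcl* and *Cav1* shared no such window with another gene, and *Tns1* shared 6 of 16358.

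The 2 adhesion genes were among the most abundant of the set and fell less than the smooth muscle actins. *Vcl* (chromosome 14, 20929398 to 21033676, plus strand), encoding vinculin, which links integrin adhesions to actin, had 1668, 1251 and 1709 counts in PP2Ac KO and 3029, 2401 and 2695 in WT. The lowest WT library, replicate 2, lay above all PP2Ac KO libraries once scaled to library size, at 55.2 CPM against at most 40.9 CPM. The log2 fold change of *Vcl* was -0.61 (SE 0.07, adjusted p = 0.000274), the smallest of the 9. Exons of *Vcl* overlap 2090 bases of *Ap3m1* on the other strand, which had a log2 fold change of 0.08 (adjusted p = 0.451). *Tns1* (chromosome 1, 73910231 to 74124449, minus strand), encoding tensin-1, an actin-binding protein of fibrillar adhesions, had 1967, 1310 and 1911 counts in PP2Ac KO and 5655, 4172 and 4741 in WT. Again the groups were apart, and *Tns1* went from 107.6 ± 10.1 to 43.9 ± 3.71 CPM, a log2 fold change of -1.29 (SE 0.09, adjusted p = 5.4e-05).

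*Cav1* (chromosome 6, 17306335 to 17341452, plus strand) encodes caveolin-1, the coat protein of caveolae, the membrane pits that flatten under tension. It had 137, 83 and 99 counts in PP2Ac KO and 299, 248 and 217 in WT, with no overlap. The level went from 5.63 ± 0.426 to 2.71 ± 0.459 CPM, a log2 fold change of -1.05 (SE 0.14, adjusted p = 0.000526). PP2Ac KO replicate 1 had the highest *Cav1* of its genotype, and it also had the highest level of 6 of the 9 tested genes among the PP2Ac KO libraries.

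**Figure D1:**
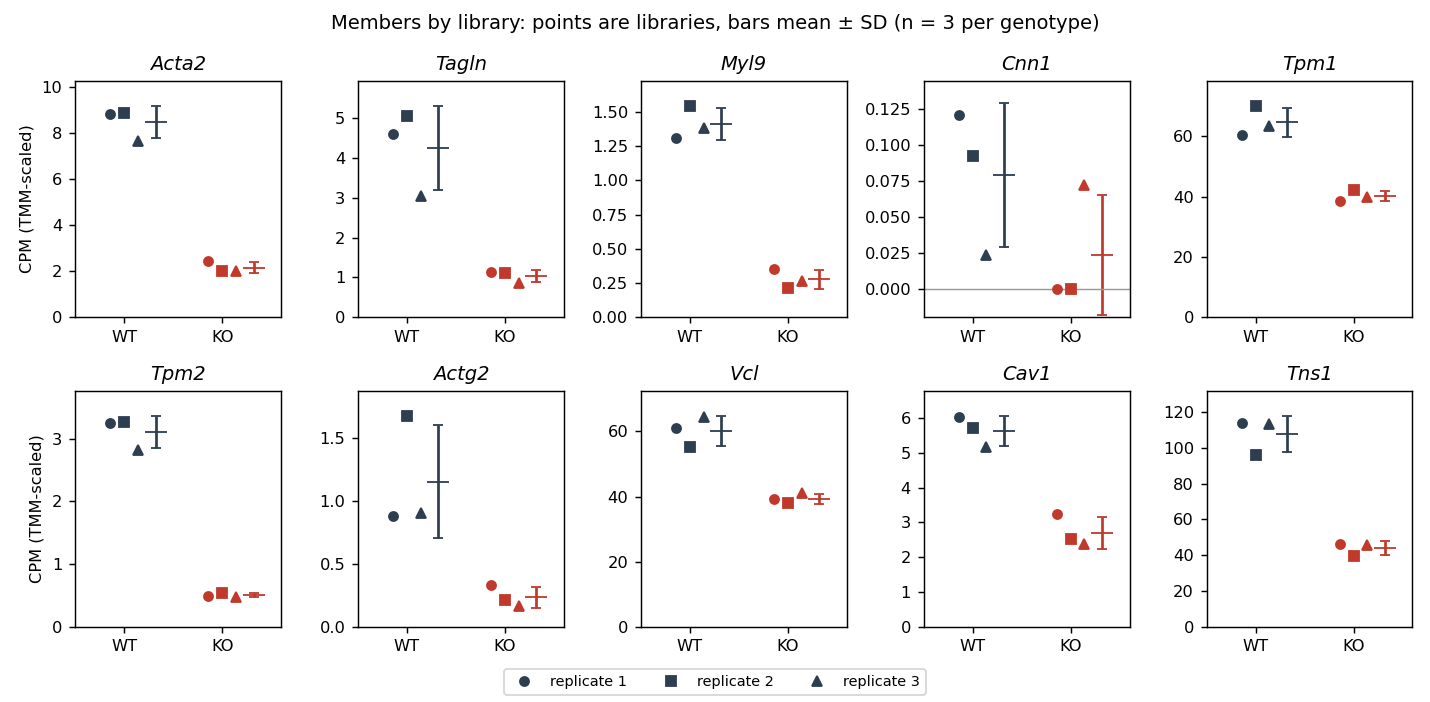
Level of each of the 10 genes in every library, in TMM-scaled CPM on linear axes, with WT in dark blue and PP2Ac KO in red; symbols mark the replicate number and bars the mean ± SD (n = 3 per genotype). For 9 genes all PP2Ac KO points lie below all WT points, while for *Cnn1* (0 to 6 counts per library) the points of the genotypes overlap.

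Counted together, 9 of the 9 tested genes fell and 0 rose at an adjusted p under 0.05, while 19.0% of all genes tested were lower at that threshold and 18.1% were higher. At a log2 fold change under -1 and an adjusted p under 0.01, the mirror of the limits the study set for higher genes, 7 of 9 were lower and 2.99% of all genes tested were. The 2 that missed it, *Tpm1* and *Vcl*, did so by the size of the change and not by the p-value. PP2Ac KO libraries all lay below WT libraries for 9 of 9, and for 26.8% of all genes tested. The median log2 fold change of the 9 was -1.97. Scaling by total counts alone, without TMM, moved the median of all genes tested to -0.24 and that of the 9 to -2.18, so both went down together; 80.3% of all calls were then lower, against 51.3% with TMM.

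**Figure D2:**
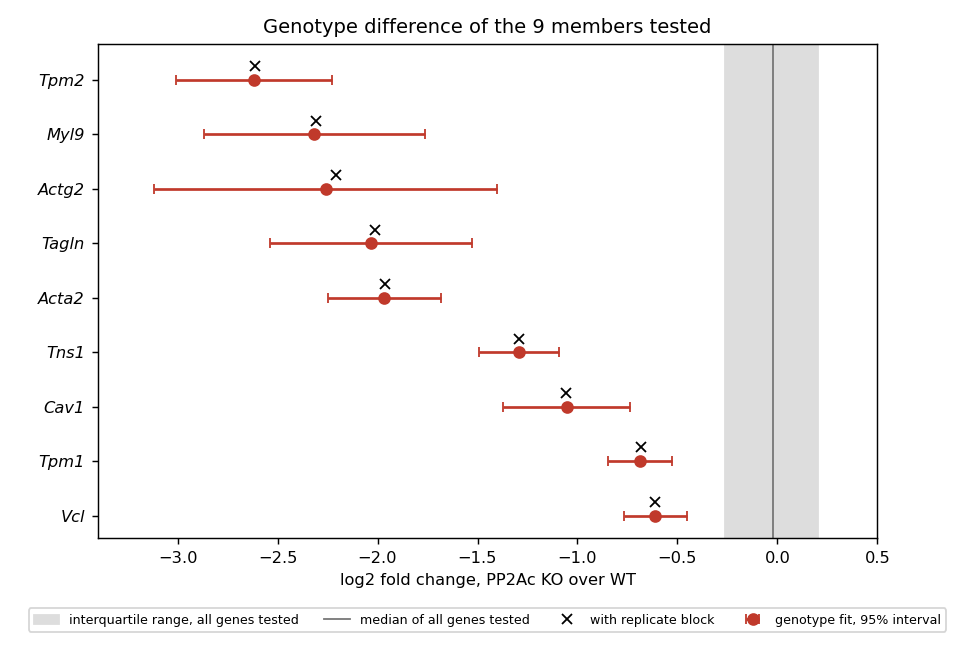
Log2 fold change (PP2Ac KO over WT) of the 9 genes tested, as red points with their 95% interval, with crosses for the value once a replicate block is added; the grey band is the interquartile range of all 13680 genes tested and the grey line their median. Every interval lies to the left of the band, from *Tpm2* at -2.62 to *Vcl* at -0.61, and the crosses sit beside the points.

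To order the 10 genes by level, CPM was divided by exon length and is given as CPM per kilobase. In WT the order was *Tpm1* (9.97 ± 0.745), *Vcl* (7.34 ± 0.561), *Tns1* (6.72 ± 0.632), *Acta2* (3.85 ± 0.315), *Tagln* (2.13 ± 0.530), *Cav1* (1.64 ± 0.124), *Myl9* (1.21 ± 0.102), *Tpm2* (1.07 ± 0.0870), *Actg2* (0.743 ± 0.290) and *Cnn1* (0.0288 ± 0.0182). In that order the libraries of *Vcl* and *Tns1*, of *Tagln* and *Cav1*, and of *Tpm2* and *Actg2* overlapped. Within each WT library, though, the first gene of each pair stood above its neighbour. The difference within these pairs was not tested. In PP2Ac KO the first 3 places were unchanged, at 6.20 ± 0.273, 4.81 ± 0.186 and 2.75 ± 0.232 CPM per kilobase. *Cav1* (0.785 ± 0.133) came before *Tagln* (0.522 ± 0.0765) there. The libraries of *Cav1* overlapped those of *Acta2* (0.981 ± 0.117), although *Acta2* was the higher within each PP2Ac KO library. The genes with the lowest WT level were *Actg2*, *Tpm2* and *Myl9* among those tested, and these were also the 3 with the largest fold changes. *Myl9* and *Actg2* passed the filter on counts through WT, with 7 counts in PP2Ac KO replicate 2. A gene this low in PP2Ac KO is tested only where WT is higher, so the filter in part fixes this link.

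Each contractile isoform was a small part of its family. *Acta2* made up 0.117 ± 0.0138% of the length-scaled level of 6 actin genes in WT and 0.0255 ± 0.00345% in PP2Ac KO, and *Actg2* made up 0.0226 ± 0.00932% and 0.00397 ± 0.00148%. *Actb* took 83.2% in WT and 87.1% in PP2Ac KO, and *Actg1* took 16.6% and 12.9%. Among 4 tropomyosin genes, the share of *Tpm1* went from 3.68 ± 0.340% to 2.24 ± 0.105% and that of *Tpm2* from 0.394 ± 0.0172% to 0.0630 ± 0.00375%. The abundant family members carried most of the signal in both genotypes, *Tpm4* with 62.8% and 56.2% and *Tpm3* with 33.1% and 41.5%.

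Other members of the same families went both ways. Of 16 family members listed, 13 were tested, 4 fell and 2 rose, and their median log2 fold change was -0.14. Of all genes tested, 19.0% fell and 18.1% rose. *Tns2*, a tensin with a lipid phosphatase-like domain, fell by 1.76 on the log2 scale (adjusted p = 0.000516), *Tns4* fell by 0.89 (adjusted p = 0.0053) and *Cnn2*, a non-muscle calponin that white blood cells also make, fell by 0.82 (adjusted p = 0.00016). *Tpm3* rose by 0.36 (adjusted p = 0.00207) and *Actb* by 0.28 (adjusted p = 0.0176). Those last rises depended on the scaling: with total counts alone *Actb* was at 0.06 (adjusted p = 0.516) and *Tpm3* at 0.14 (adjusted p = 0.0808), and with upper-quartile scaling *Actb* had an adjusted p of 0.0534. *Actg1* (-0.15, adjusted p = 0.127), *Tpm4* (-0.13, adjusted p = 0.163), *Tagln2* (0.07, adjusted p = 0.436), *Myl12a* (-0.00, adjusted p = 0.968) and *Myl12b* (-0.14, adjusted p = 0.623) did not pass the test. With the replicate block *Actg1* and *Tpm4* did, at adjusted p = 0.00775 and 0.0284, with the log2 fold change of *Actg1* still at -0.15 and that of *Tpm4* at -0.13.

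Other genes of the smooth muscle contractile apparatus were mixed. Of 20 listed, 13 were tested, with a median of -0.42. Of these 13, 6 fell and 2 rose, beside 19.0% and 18.1% of all genes tested. Those named here are *Cald1*, encoding the thin-filament protein caldesmon (-1.58, adjusted p = 0.000185), *Mylk*, encoding myosin light chain kinase (-1.38, adjusted p = 0.00526), and *Smtn*, encoding smoothelin (-1.07, adjusted p = 0.000169). *Csrp1*, a LIM-domain protein of the actin cytoskeleton, rose by 0.70 (adjusted p = 0.00016). Untested genes of this list had few counts: *Lmod1*, an actin nucleator of smooth muscle, had 1, 2 and 1 in PP2Ac KO and 7, 9 and 14 in WT, and *Des*, encoding desmin, had 5, 0 and 3 against 4, 5 and 11.

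With TMM scaling, the transcript that fell among SRF and its MRTF cofactors was that of *Mrtfb*. *Srf* was at -0.06 (adjusted p = 0.658) and *Mrtfa* at -0.09 (adjusted p = 0.421), neither past the threshold. *Mrtfb* fell by 0.81 (adjusted p = 9.99e-05), from 2988, 2393 and 2526 counts in WT to 1472, 1005 and 1467 in PP2Ac KO. With total counts alone, *Srf* (-0.28, adjusted p = 0.0455) and *Mrtfa* (-0.30, adjusted p = 0.00741) also passed as lower. Of the 19 genes listed for SRF, its cofactors and the actin-regulating steps upstream, 18 were tested, 6 fell and 3 rose, with a median of -0.07. Of all genes tested, 19.0% fell and 18.1% rose. *Phactr1*, which binds monomeric actin, rose by 0.98 (adjusted p = 0.00125).

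Further SRF targets were listed by cofactor branch. Of 18 further targets assigned to MRTF, 17 were tested, 10 fell and 1 rose, with a median of -0.35. Of all genes tested, 19.0% fell and 18.1% rose. *Fhl1*, a LIM-domain protein of muscle, fell by 2.35, *Enah*, which lengthens actin filaments, fell by 1.73, and the matricellular gene *Ccn2*, also a target of YAP and TEAD, fell by 1.62 (adjusted p = 0.00149, 0.000173 and 0.000122). Its relative *Ccn1* went from 253, 249 and 147 counts in WT to 78, 51 and 70 in PP2Ac KO (adjusted p = 0.000472). *Zyx*, encoding the adhesion protein zyxin, rose by 0.73 (adjusted p = 0.000232). *Fhl1* had 2, 7 and 7 counts in PP2Ac KO and 37, 29 and 30 in WT, so it passed the filter through WT alone. With 10 counts required in every library, 8 MRTF targets fell in place of 10. Of 9 immediate early genes assigned to the TCF branch, 9 were tested, 0 fell and 6 rose, with a median of 0.55. *Junb* rose by 1.34 (adjusted p = 3.9e-05), *Fos* by 0.81 (adjusted p = 0.000108), *Nr4a1* by 0.67 (adjusted p = 0.00016) and *Egr1* by 0.67 (adjusted p = 0.000705). The difference between the branches was not itself tested.

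**Figure D3:**
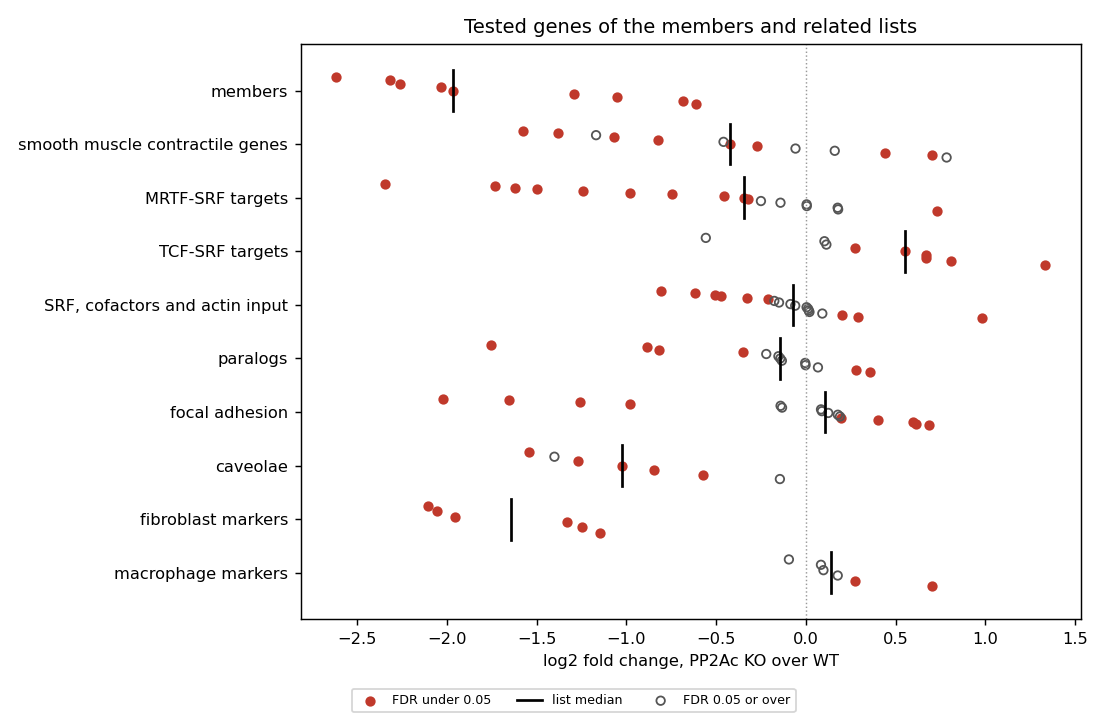
Log2 fold change (PP2Ac KO over WT) of every tested gene of the 9 contractile and cytoskeletal genes (row "members") and of 9 related lists; filled red points passed an adjusted p of 0.05, open points did not, and black bars are list medians. The medians run from -1.97 for the members and -1.64 for the fibroblast markers to 0.55 for the TCF targets of SRF.

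Beside *Vcl* and *Tns1*, other focal adhesion genes went both ways. Of 16 listed, 16 were tested, 4 fell and 5 rose, with a median of 0.11. Of all genes tested, 19.0% fell and 18.1% rose. With a term for the replicate number (the replicate block) 6 fell and 8 rose, and 3615 and 3343 of all 13680 genes did. *Fermt2*, encoding kindlin-2, fell by 2.02 (adjusted p = 0.000806), *Parva*, encoding alpha-parvin, by 1.65 (adjusted p = 0.000539) and *Tln2*, encoding talin-2, by 1.26 (adjusted p = 0.00328). *Itga5*, the alpha subunit of the fibronectin receptor, rose by 0.68 (adjusted p = 0.000448). Beside *Cav1*, 9 other caveolar genes were listed, 7 were tested, 5 fell and 0 rose, with a median of -1.03. *Ehd2*, an ATPase at the neck of caveolae, fell by 1.54 (adjusted p = 0.000696), the coat genes *Cavin2* and *Cavin1* fell by 1.27 and 1.03 (adjusted p = 0.0432 and 0.00336), and *Cav2*, the partner of caveolin-1, was at -0.58 (adjusted p = 0.000403). *Cav3*, the muscle caveolin, had no count in any library. Without PP2Ac KO replicate 2 or without WT replicate 2, 3 caveolar genes fell in place of 5. *Cavin2* had 10, 3 and 12 counts in PP2Ac KO and 17, 31 and 21 in WT, and passed the filter through WT. With 10 counts required in every library, 4 caveolar genes fell.

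Fibroblast markers moved with the contractile genes, beside 19.0% of all genes tested that fell and 18.1% that rose. All 6 tested markers of 7 listed fell: *Col1a1* (-2.10, adjusted p = 3.9e-05), *Col1a2* (-2.05), *Col3a1* (-1.95), *Pdgfra* (-1.33), *Dcn* (-1.25) and *Pdgfrb* (-1.14), with a median of -1.64, while *Lum* had 0 to 6 counts per library. Their summed level ranged from 24.9 to 37.4 CPM in PP2Ac KO and from 80.8 to 124.9 CPM in WT. Without PP2Ac KO replicate 2 or without WT replicate 2, 5 fibroblast markers passed as lower in place of 6. Mural cell markers summed to 2.65 ± 0.122 and 5.30 ± 0.617 CPM, with 2 of 5 tested and both lower (*Cspg4* and *Mcam*), and *Rgs5*, *Notch3* and *Myh11* at 9 counts or fewer in every library. Megakaryocyte markers summed to 13.5 ± 1.37 and 16.5 ± 1.54 CPM, with 2 of 3 tested genes lower. The other tested gene, *Pf4*, was at -0.02 (adjusted p = 0.941) and made up most of both megakaryocyte sums. Of the mural pair, 1 stayed lower with limma-voom and when any library but WT replicate 3 was left out, and the megakaryocyte count was 0 without PP2Ac KO replicate 2 or WT replicate 2 and 1 without PP2Ac KO replicate 3. The part of other cells in the fall of the contractile genes was not tested, and the labels give no purity for the cultures.

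To place the contractile genes beside those markers, each was expressed per 1000 counts on the 7 fibroblast markers in the same library. On that scale 3 genes stayed lower in every PP2Ac KO library, 4 overlapped and 3 were higher in every PP2Ac KO library. The marker sum in PP2Ac KO was itself 28.8% of that in WT, so a gene without change would lie higher here. The split therefore sets the fall of each gene against the fall of the markers. The share over all genes was not computed on this scale. *Tpm2* was at 16.8 ± 3.15 in PP2Ac KO and 29.7 ± 4.57 in WT, *Myl9* at 9.01 ± 1.84 and 13.6 ± 3.10, and *Tagln* at 33.9 ± 3.36 and 39.4 ± 1.43. The split depended on the markers in the sum, most of whose counts were collagen. Against the 3 collagen markers alone *Tpm2* was lower in every PP2Ac KO library and *Tpm1*, *Vcl*, *Cav1* and *Tns1* were higher, and against the 4 other markers *Acta2*, *Tagln*, *Myl9*, *Tpm2* and *Actg2* were lower and 0 were higher. With each of the 6 tested markers alone as denominator, 1 to 5 genes were lower and 0 to 4 were higher, and *Tpm2* was lower each time. These denominators were added after the values were seen. Against the sum of 7, *Acta2* overlapped, with 65.6, 65.8 and 80.8 in PP2Ac KO and 76.4, 71.1 and 94.8 in WT, and so did *Actg2*, *Tns1* and *Cnn1*. *Tpm1* (1340 ± 286 against 623 ± 142), *Vcl* (1314 ± 301 against 588 ± 184) and *Cav1* (88.1 ± 6.39 against 53.9 ± 9.33) were higher relative to the markers. No test was run on this scale.

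**Figure D4:**
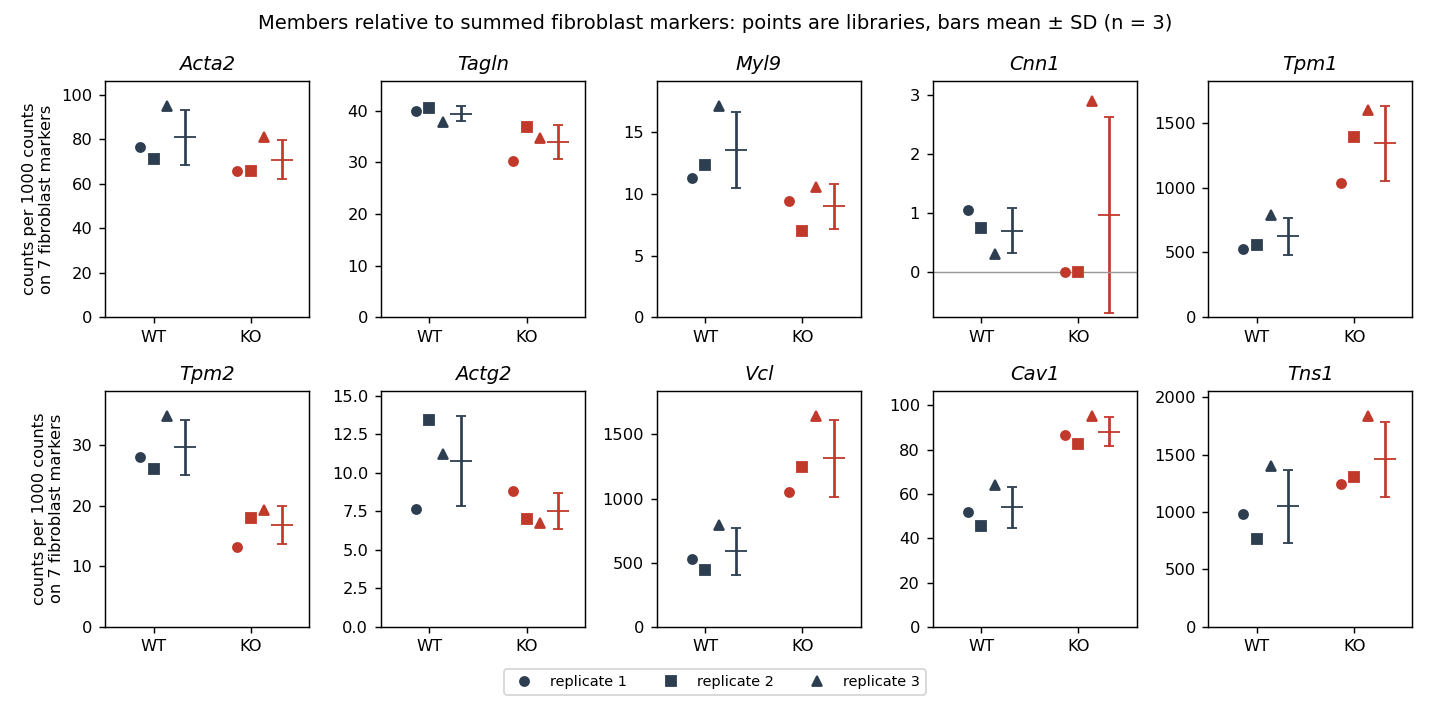
Counts of each gene per 1000 counts on 7 fibroblast markers (*Col1a1*, *Col1a2*, *Col3a1*, *Dcn*, *Lum*, *Pdgfra*, *Pdgfrb*) in the same library, with WT in dark blue, PP2Ac KO in red, symbols for the replicate number and bars for the mean ± SD (n = 3). On this scale *Tagln*, *Myl9* and *Tpm2* lie lower in PP2Ac KO, *Acta2*, *Cnn1*, *Actg2* and *Tns1* overlap, and *Tpm1*, *Vcl* and *Cav1* lie higher. The marker sum itself is lower in PP2Ac KO.

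The rank of the libraries within a genotype was set beside that in the fibroblast markers. PP2Ac KO replicate 1 was the highest of its genotype for 6 of the 9 genes and 5 of 6 fibroblast markers, and WT replicate 2 for 6 of the 9 and 4 of 6. WT replicate 3 was the lowest WT library for 6 of 6 fibroblast markers and for 4 of the 9 contractile and cytoskeletal genes, and WT replicate 1 was the lowest for 3 and WT replicate 2 for 2 of the 9. PP2Ac KO replicate 3 was likewise the lowest of its genotype for 6 of 6 markers and for 4 of the 9, the same number as PP2Ac KO replicate 2. Within WT, *Tpm1* was highest in replicate 2 at 70.0 CPM, while *Vcl* and *Tns1* were lowest in that library.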

How the data were processed

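RNA-Seq of 6 BMDM libraries was used, 3 PP2Ac KO and 3 PP2Ac WT, with genotype and replicate number from the sample titles and column names. The authors deposited whole-number read counts per gene without normalization, in 1 table in which 0 columns could not be mapped to a sample. The submitters' processing notes name the builds mm10 and GRCm38 and fastp 0.20.0, kallisto 0.46.1, STAR 2.7.1a, HTSeq 0.11.2, edgeR 3.34.0 and limma 3.48.3, without their roles. The annotation release and the strand setting of the counting are not given in the sources used here, so reads of overlapping genes may have been divided in ways the counts do not show.

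Genes were kept by filterByExpr (minimum count 10, minimum total 15), which left 13680 of 55453, scaled by TMM (factors 0.910 to 0.937 in PP2Ac KO and 1.05 to 1.10 in WT) and tested by the quasi-likelihood F-test of edgeR 4.0.16 in R 4.3.3 with genotype as the only term and Benjamini-Hochberg adjustment. The SE is the absolute log2 fold change divided by the square root of F. The biological coefficient of variation was 8.77%. Intervals of count ratios and the floor of 3 counts cover counting error only. No pair of replicates agreed within counting noise (chi-square per degree of freedom 9.50 to 44.9).

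The 10 genes and the lists were chosen with earlier results of these data known, so no test over a list was made. Beside the 10 genes and *Ppp2ca*, the text names up to 4 called genes of each list by size of change, family members that could share reads, and cell type markers. Other genes (*Srf*, *Mrtfa*, untested genes, overlap partners) were named after their values were seen, and some genes that the rule picks are not reported here. Coordinates are from GENCODE M21, in which 98.3% of the symbols occur, and promoters from RefSeq.

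Replicate numbers are shared by the genotypes in the titles. Deviations from the group means of same-numbered libraries had correlations over 13680 genes of 0.289, 0.148 and 0.337. Differently numbered libraries were not compared in this way and the labels name no pairing, so whether the libraries are paired is not known. The main fit therefore ignores the replicate number, and a fit with the replicate block was run beside it. Over all genes the block gave 3615 lower and 3343 higher calls, against 2604 and 2470 in the main fit. Alternatives were RLE, upper-quartile and total-count scaling, no filter and a filter of 10 counts in every library, DESeq2 1.42.0, limma-voom 3.58.1 and leaving out each library. Other sets of fibroblast markers as denominator were added after seeing the data.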

Additional observations from a re-analysis of the deposited data

How the results depend on the processing

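All 9 tested genes fell in every alternative that tested them, with an adjusted p of at most 0.00934 (*Actg2* without PP2Ac KO replicate 3). A filter of 10 counts in every library removed *Myl9* and *Actg2*, which had passed the main filter through WT, and left 7 lower. Of these, 5 had a log2 fold change under -1 and an adjusted p under 0.01. The median log2 fold change moved from -1.97 to -1.29. Leaving out each library gave medians of -2.08 to -1.89 and 9 lower genes each time. Adding the replicate block gave 9 lower genes and a median of -1.96. It raised the MRTF targets that rose from 1 to 3, the focal adhesion genes that rose from 5 to 8 and the TCF targets that fell from 0 to 1, and moved no other count of these lists by over 1.5 times. It changed no call of the 10 genes, and of the other genes named with a p-value it changed *Actg1*, *Tpm4*, *Fermt3*, *Parvb*, *Tln1* and *Pecam1*, all now past the threshold.

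Over all genes, lower calls were 51.3% of calls with TMM (2604 lower, 2470 higher), 61.6% with upper-quartile scaling (3356 and 2095) and 80.3% with total counts only (6125 and 1503). Total counts also gave 8 lower and 0 higher family members (4 and 2 with TMM), 13 lower and 1 higher genes of the SRF and cofactor list (6 and 3), and 1 lower TCF target. Upper-quartile scaling gave 1 higher family member, 1 higher gene of the SRF list and 1 lower TCF target, and no filter also gave 1 lower TCF target. Leaving out single libraries gave 3 to 5 lower caveolar genes, 1 to 2 higher family members (1 without PP2Ac KO replicate 1, PP2Ac KO replicate 3 or WT replicate 2), 1 to 4 higher genes of the SRF list (1 without PP2Ac KO replicates 1 or 2 or WT replicates 2 or 3), 1 to 3 higher MRTF targets (3 without WT replicate 1), 3 to 6 higher focal adhesion genes (3 without PP2Ac KO replicate 1 or WT replicate 2) and 0 to 1 lower TCF targets (1 without WT replicate 1). The cause was not tested. Of 78 called genes over all lists and *Ppp2ca*, 77 kept call and direction with RLE scaling, 73 with upper-quartile scaling and 71 with total counts only. *Cnn1*, *Lmod1* and other genes at a few counts are limited by depth. Without a filter, *Cnn1* had a log2 fold change of -1.56 (SE 1.09, adjusted p = 0.387).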

Other observations

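In several cytoskeletal families the members moved by different amounts. These pairs were chosen after their values were seen, and the difference within a pair was not tested. *Fermt2* was at -2.02 and *Fermt3*, the kindlin of blood cells, at -0.13 (adjusted p = 0.201, and 0.0241 with the replicate block). *Parva* was at -1.65 and *Parvb* at -0.14 (adjusted p = 0.0669, and 0.0113 with the block). *Tln2* was at -1.26 and *Tln1*, the abundant talin, at 0.19 (adjusted p = 0.302, and 0.00766 with the block). *Tagln* was at -2.03 and *Tagln2* at 0.07. Other abundant relatives passed the test: *Cnn2* fell by 0.82 and *Tns3* by 0.35 (adjusted p = 0.0414), while *Actb* rose by 0.28 and *Tpm3* by 0.36, rises that total-count scaling did not keep past the threshold.

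Of 5 endothelial genes listed, 3 were tested, 2 rose and 0 fell, beside 18.1% and 19.0% of all genes tested. *Kdr*, encoding a VEGF receptor, rose by 1.09 on the log2 scale and *Cdh5*, encoding VE-cadherin, rose by 1.40, with 9741, 6025 and 7687 counts of *Kdr* in PP2Ac KO and 6210, 3326 and 3277 in WT. *Pecam1* was at 0.34 (adjusted p = 0.0643, and 0.0265 with the replicate block). *Cldn5* had 0 counts in every library and *Tek* had at most 4, so these 2 endothelial genes were at or near 0. The summed endothelial level was 217.9 ± 27.5 CPM in PP2Ac KO and 103.9 ± 29.2 CPM in WT, most of it from *Kdr*.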
